A study of Mus musculus with 8 samples.

Results

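The genes described here are the nuclear genes for subunits of the 5 complexes of oxidative phosphorylation, followed in whole mouse hippocampus. They were chosen by symbol: every gene whose symbol begins with Nduf and a letter of the series a, b, c, s or v with a number, with Uqcr, with Cox and a number from 4 to 8, or with Atp5, together with Sdha, Sdhb, Sdhc and Sdhd. That rule found 94 of the 37310 genes in the table, of which 40 belong to complex I, 4 to complex II, 10 to complex III, 19 to complex IV and 21 to complex V. The rule used no measured value. It follows names, so Ndufa4, which is now regarded as a subunit of complex IV, is counted with complex I, and 10 of the 94 are copies or pseudogenes of a subunit gene. The study compared 4 mice heterozygous for a knockout of Nr2f1, a nuclear receptor gene that patterns the developing brain, with 4 wild-type (WT) mice. All 8 carry the labels B6.129 F1-hybrid, male and 3 months. The labels give neither the allele nor the cells that carry it beyond heterozygous knockout. Each library is labelled as a biological replicate, so the spread between libraries includes that between animals.

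Oxidative phosphorylation is the last step of respiration. Complexes I and II feed electrons into the inner mitochondrial membrane, complex III hands them to cytochrome c, complex IV passes them to oxygen, and complex V uses the proton gradient built on the way to make ATP. Neurons draw most of their ATP from this route, and hippocampal circuits depend on it for pumping ions after firing. Complexes I, III, IV and V also hold subunits encoded in the mitochondrial genome, while every subunit of complex II comes from nuclear genes. Several subunits of complex IV exist as a form used in most tissues and a form known from muscle, testis or lung.

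Libraries held 58717305 to 90043971 gene counts, and the 94 genes took between 0.854% and 0.902% of them, the most in heterozygote library 1. Nr2f1 itself was at 53.4, 49.5, 54.1 and 51.6 CPM (gene counts relative to the TMM library size) in WT libraries 1 to 4 and at 32.4, 31.0, 33.5 and 28.5 CPM in heterozygote libraries 1 to 4, which is 60.1% of the WT mean (edgeR adjusted p = 7.32e-05), so the labels held for the targeted gene. The label of sex did not: Xist ran from 463.2 to 601.4 CPM over the 8 libraries, and the 14 Y-linked genes had 3 counts in total. All 8 hippocampal neuron markers were detected, and 2 of the 8, Snap25 and Wfs1, fell, where 0.368% of all genes tested passed on the lower side. WT libraries 1 and 3 held less of 12 choroid plexus marker genes (summed level 215.2 and 744.6 CPM) than WT libraries 2 and 4 (2160 and 2953 CPM), and the heterozygotes held more than any WT library (5578 to 6443 CPM). In RNA from whole tissue, fewer cells of a type and less RNA per cell cannot be told apart.

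The nuclear genes of respiration are known to be driven through shared promoter elements, among them sites for NRF1 (nuclear respiratory factor 1) and YY1. Promoter windows of 300 bases, from 250 before to 50 after the start of a gene in RefSeq on GRCm38.p6, were found for 66 of the 94 members (71 windows), and exact matches were searched on both strands. The consensus of NRF1, of 10 letters, stood in 5 of the 71 windows (7.04%), against 0.971% of 32851 windows of all genes, and the YY1 letters AAGATGGCG in 7 (9.86%), against 1.40%. A match of letters describes the window and is not a measured binding site. The 5 stretches with the NRF1 letters are shown as the element most particular to respiratory genes in textbooks, 5′ to 3′ on the strand of the gene, with the motif in capitals.
Atp5g2, chr15:102671070-102671099, minus strand: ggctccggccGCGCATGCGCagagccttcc
Atp5k, chr5:108434430-108434459, minus strand: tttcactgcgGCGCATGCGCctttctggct
Cox6a1, chr5:115349101-115349130, minus strand: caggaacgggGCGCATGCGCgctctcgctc
Ndufa11, chr17:56717692-56717721, plus strand: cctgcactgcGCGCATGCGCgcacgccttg
Uqcrc1, chr9:108936668-108936697, plus strand: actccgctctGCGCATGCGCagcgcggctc

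The 7 stretches with the YY1 letters, in capitals, follow as the commoner of both elements among the members. In Atp5j the match lies before the start of the gene, and in the other 6 it lies just after it.
Atp5j, chr16:84835045-84835074, minus strand: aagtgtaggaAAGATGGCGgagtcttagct
Atp5j2, chr5:145191499-145191528, minus strand: ccaggacttcAAGATGGCGtcactcggtga
Ndufa9, chr6:126849096-126849125, minus strand: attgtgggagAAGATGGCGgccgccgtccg
Ndufc1, chr3:51408914-51408943, minus strand: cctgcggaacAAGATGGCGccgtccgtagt
Ndufs4, chr13:114388045-114388074, minus strand: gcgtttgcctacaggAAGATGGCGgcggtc
Ndufs6, chr13:73328433-73328462, minus strand: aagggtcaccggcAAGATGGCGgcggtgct
Ndufs7, chr10:80249463-80249492, plus strand: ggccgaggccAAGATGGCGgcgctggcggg

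None of the genes behind these elements passed the test between genotypes. The 5 genes with the NRF1 letters had log2 fold changes from -0.0048 for Uqcrc1 to 0.07 for Atp5k, and the 7 with the YY1 letters from -0.03 for Ndufc1 to 0.03 for Atp5j2. The mRNAs of both factors did not pass either, at 18.1 ± 0.841 CPM in WT and 17.6 ± 1.06 CPM in heterozygotes for Nrf1 (SD, n = 4 each; edgeR adjusted p = 0.754) and at 34.2 ± 1.24 and 33.4 ± 0.822 CPM for Yy1 (SD, n = 4 each; edgeR adjusted p = 0.677). Of the other elements searched, the ETS letters CCGGAAGT stood in 5 of the 71 windows (7.04%) against 3.89% of all windows, the Sp1 letters GGGCGG in 38.0% against 35.7%, CCAAT in 42.3% against 37.4% and TATAAA in 11.3% against 13.6%. GTTGCCAT, a part of the RFX X-box, stood in 0 of the 71 windows and in 1.35% of all.

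Most subunit genes of oxidative phosphorylation differed little between heterozygotes and WT, and 1 gene of low level rose. Of 94 genes, 86 had enough counts to be tested, and 1 of the 86 passed the edgeR adjusted p of 0.05, Cox6b2, which was higher in heterozygotes. Cox6b2 was also the only member called by DESeq2 or limma-voom. Over all 17913 genes tested, 2.99% passed, 2.62% higher and 0.368% lower. An unadjusted p under 0.05 was reached by 5 of the 86, against 17.2% of all genes. In 4 of the 86, Ndufb10, Ndufv3, Cox6b2 and Cox6c2, the 4 heterozygote libraries did not overlap the 4 WT libraries, against 10.6% of all genes. Ndufb10, Ndufv3 and Cox6b2 were on the higher side, where 6.99% of all genes separated, and Cox6c2 on the lower, where 3.59% did.

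The closeness is plainest in the 76 members with a mean of at least 10 CPM, which had at least 772 counts in every library. None of these 76 passed the test in edgeR, DESeq2 or limma-voom, 3 had an unadjusted edgeR p under 0.05, and in 2 the genotypes did not overlap. DESeq2 called 6.7% of all genes tested and limma-voom 3.51%. Of all 10046 genes at that level, 2.15% passed in edgeR, 17.3% had an unadjusted p under 0.05 and 9.99% did not overlap. The log2 fold changes of the 76 ran from -0.07 for Atp5s to 0.11 for Ndufa1, with standard errors of 0.0287 to 0.0598. The 95% intervals together spanned folds of heterozygotes over WT from 0.877 to 1.18, and 75 of the 76 lay within 0.2 of 0 on the log2 scale, a 1.15-fold difference. Their median coefficient of variation over the 8 libraries was 3.71%, against 4.77% for all genes of at least 10 CPM. Their median unsigned log2 fold change was 0.03, against 0.05 for those genes. Those genes share only the floor of 10 CPM with the members and were not matched for level, on which both measures depend.

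**Figure D1:**
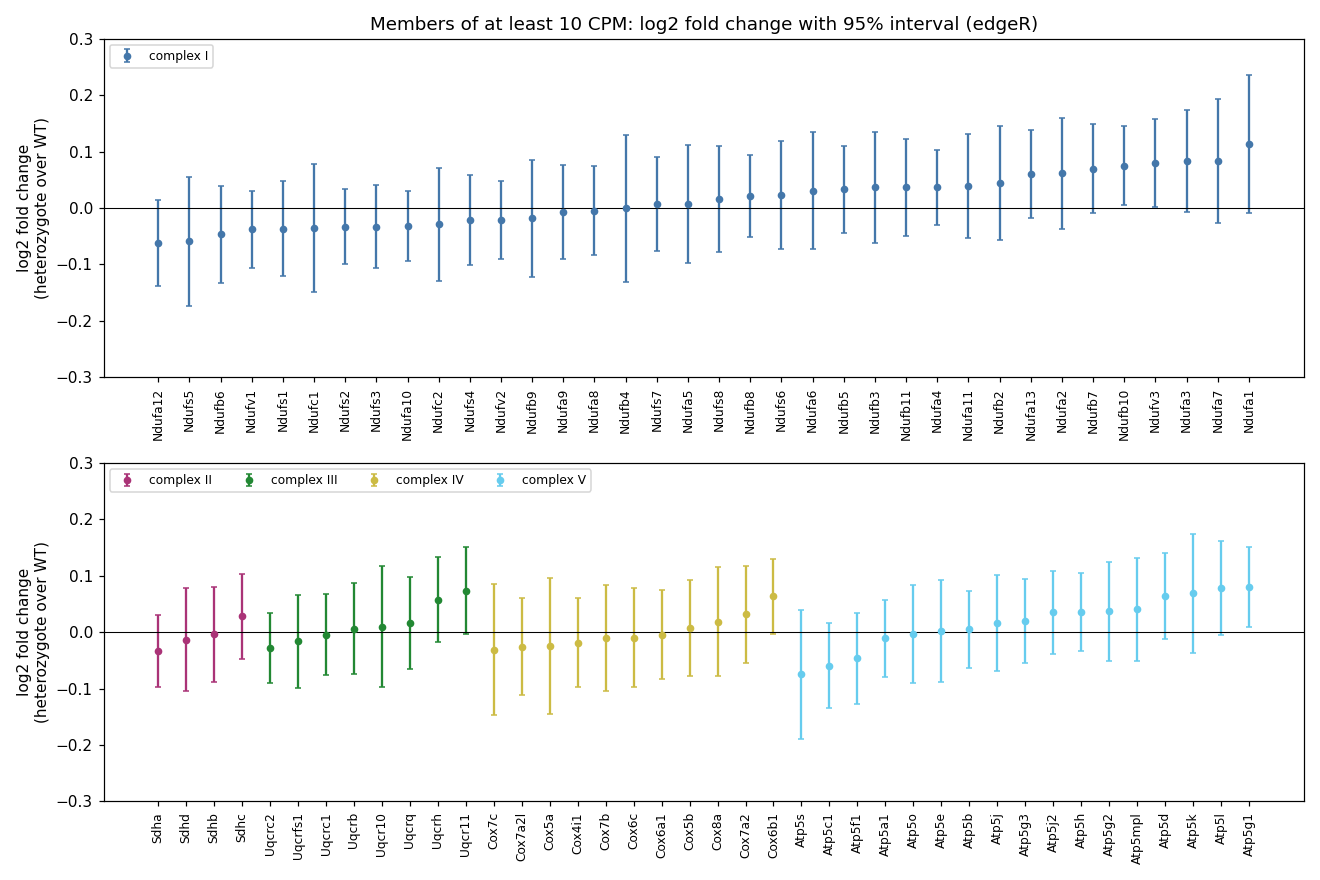
Log2 fold change of heterozygotes over WT for the 76 members of at least 10 CPM, with 95% intervals from edgeR (n = 4 libraries per genotype), complex I above and complexes II to V below. The points run from -0.07 to 0.11 and only the intervals of Ndufb10, Ndufv3 and Atp5g1 leave out 0.

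These genes stood among the most abundant of the tissue. Levels between genes are compared here per kilobase of transcript (CPM divided by the length of the principal transcript). On that scale 66 of the 94 members lay above the 90th percentile of the tested genes, 40.6 CPM per kilobase, and Atp5b, the catalytic beta subunit of ATP synthase, ranked 46 of 17106 genes at 528.9. Of all counts of the 94 members, complex V took 38.5%, complex I 27.4%, complex IV 17.6%, complex III 9.48% and complex II 6.98%. The highest member of each other complex was Cox8a at 498.6, Ndufa4 at 243.4, Uqcrh at 200.2 and Sdha at 126.4 CPM per kilobase. The lowest among members of at least 1 CPM were Atp5s at 8.18, Sdhc at 24.5, Uqcrq at 43.8, Ndufa4l2 at 1.50 and Cox6a2 at 2.75 CPM per kilobase. Atp5s (factor B) couples ATP synthase without being a fixed subunit of it, and the last 2 are forms of subunits known from other tissues. Lengths come from a later annotation than the counts, so small differences between genes on this scale carry no weight. The principal transcript used had 1521 bases for Uqcrq, 4371 for Ndufb2 and 4715 for Atp5g1, and their places on this scale depend on it. In CPM, Uqcrq (66.5) stood above Uqcrb (40.5).

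**Figure D2:**
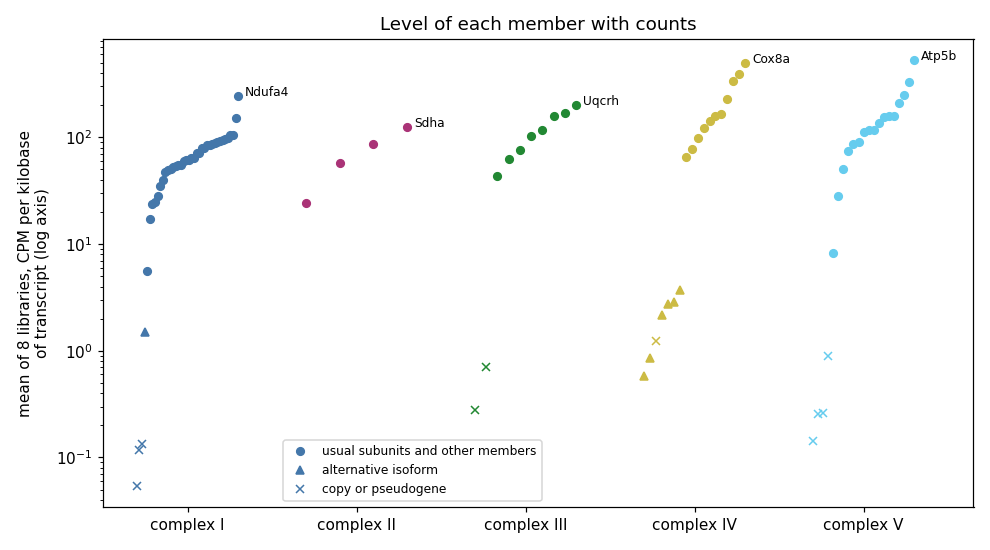
Mean level over 8 libraries of each member with counts, in CPM per kilobase of transcript on a log axis, ordered within each complex; circles are usual subunits, triangles alternative isoforms and crosses copies or pseudogenes. Circles reach from 5.64 (Ndufb2, taken with a transcript of 4371 bases) to 528.9, while every triangle lies at or below 3.68.

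Complex I, the largest, takes electrons from NADH through 7 nuclear-encoded core subunits and is held together by accessory ones. None of its 37 tested genes passed the test, and 2 had an unadjusted p under 0.05, against 2.99% and 17.2% of all genes tested. Of the core genes, Ndufs1, which carries iron-sulfur clusters, was at 124.4, 125.6, 127.8 and 128.0 CPM in WT and at 131.4, 124.8, 115.6 and 121.8 CPM in heterozygotes, with the highest and the lowest values both among heterozygotes (log2 fold change -0.04 ± 0.0388 SE, edgeR adjusted p = 0.687). Ndufv1, which binds NADH, had a log2 fold change of -0.04 (edgeR adjusted p = 0.592), and Ndufs7, next to the quinone site, 0.0071 (edgeR adjusted p = 0.953).

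The lowest p-values of complex I belonged to accessory genes. Ndufb10 was at 73.4, 78.0, 74.1 and 75.9 CPM in WT and at 80.8, 79.0, 78.7 and 79.0 CPM in heterozygotes, so every heterozygote library lay above every WT library by a narrow margin. Its log2 fold change was 0.08 ± 0.0320 (SE), a 1.05-fold difference (edgeR adjusted p = 0.250). Ndufv3 did likewise, at 53.2, 54.3, 52.7 and 53.8 CPM in WT against 54.8, 55.1, 59.6 and 56.6 CPM in heterozygotes (log2 fold change 0.08 ± 0.0361 SE, edgeR adjusted p = 0.281). Ndufa1, an X-linked membrane subunit, varied most of the 76 (coefficient of variation 7.32%), with 28.8 CPM in WT library 1 and 37.4 CPM in heterozygote library 1 as its extremes and overlapping groups (edgeR adjusted p = 0.328).

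The medians of core and accessory genes of complex I lay on opposite sides of 0 over the 8 libraries, but not within odd-numbered or even-numbered libraries alone. The 7 core genes had a median log2 fold change of -0.03, with 2 above 0, and the 29 accessory genes one of 0.03, with 18 above 0; the median over all genes tested was -0.0056. With spike-in scaling, centred separately within odd-numbered and within even-numbered libraries, all 36 lay above 0. Relative to the median of all genes the 2 medians stayed at -0.02 and 0.04. In odd-numbered libraries alone 4 of the 7 core genes lay above 0 (medians 0.0018 for core and 0.06 for accessory genes). In even-numbered ones 1 of the 7 core and 14 of the 29 accessory genes did (medians -0.04 and -0.0046). The 2 classes also differ in transcript length, and length moved with the sign over the genes of at least 10 CPM. Of members at that level with transcripts under 1000 bases, 32 of 44 lay above 0, as did 67.9% of all 423 such genes. Of members with longer transcripts 10 of 32 did, as did 39.8% of all 9532 such genes. Both shares include the members. The part of length in the difference was not tested.

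Complex II, succinate dehydrogenase, links the citric acid cycle to the chain. None of its 4 genes passed the test and none had an unadjusted p under 0.05, against 2.99% and 17.2% of all genes tested. Their log2 fold changes lay between -0.03 and 0.03. Sdha, the flavoprotein, was at 365.6, 373.9, 369.1 and 374.5 CPM in WT and at 366.6, 370.7, 355.9 and 355.9 CPM in heterozygotes, which overlapped (log2 fold change -0.03 ± 0.0295 SE, edgeR adjusted p = 0.617). The iron-sulfur subunit Sdhb had a log2 fold change of -0.0034 (edgeR adjusted p = 0.978), and the membrane anchors Sdhc and Sdhd 0.03 and -0.01 (edgeR adjusted p = 0.732 and 0.915). Sdha was 5.16 times as abundant as Sdhc per kilobase.

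Complex III, the cytochrome bc1 complex, had 0 of 9 tested genes past the test and 0 with an unadjusted p under 0.05. The shares over all genes tested were 2.99% and 17.2%. The core protein genes Uqcrc1 and Uqcrc2 had log2 fold changes of -0.0048 and -0.03, and the Rieske iron-sulfur gene Uqcrfs1 -0.02. Uqcrc2 was the steadiest of the 76, with a coefficient of variation of 1.64%: 196.0, 198.1, 199.0 and 199.3 CPM in WT and 197.1, 195.0, 189.2 and 195.6 CPM in heterozygotes (edgeR adjusted p = 0.668). The 5 small subunits all had log2 fold changes above 0, led by Uqcr11 at 0.07 ± 0.0352 (SE, edgeR adjusted p = 0.308) and Uqcrh at 0.06 ± 0.0347 (SE, edgeR adjusted p = 0.437). Uqcrq was at 0.02 (edgeR adjusted p = 0.869).

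Complex V, ATP synthase, had 0 of 18 tested genes past the test and 1, Atp5g1, with an unadjusted p under 0.05. Of all genes tested, 2.99% and 17.2% did so. Several subunits are named here. The catalytic beta gene Atp5b was at 999.1, 1024, 1007 and 1016 CPM in WT and at 1016, 1048, 974.4 and 1022 CPM in heterozygotes. The heterozygotes reached both below and above the WT range (log2 fold change 0.0048 ± 0.0318 SE, edgeR adjusted p = 0.964). Atp5a1 and Atp5c1, the alpha and gamma subunits, had log2 fold changes of -0.01 and -0.06 (edgeR adjusted p = 0.903 and 0.418). Per kilobase, Atp5b was 3.41 and Atp5a1 2.13 times as abundant as Atp5c1, and Atp5b was 1.60 times as abundant as Atp5a1. These are levels of mRNA and were not compared with the copies of each protein in the enzyme. Atp5s had a log2 fold change of -0.07 (edgeR adjusted p = 0.514).

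The ring of c subunits that turns in the membrane comes from 3 genes that encode the same mature protein. Atp5g3 gave 76.2% of their summed level per kilobase in WT and 75.8% in heterozygotes, Atp5g2 15.4% and 15.5%, and Atp5g1 8.35% and 8.66%. These shares rest on the transcript lengths used, 4715 bases for Atp5g1 against 723 for Atp5g3 and 731 for Atp5g2. In CPM the means over 8 libraries were 181 for Atp5g3, 132 for Atp5g1 and 37.2 for Atp5g2. The place of Atp5g1 below Atp5g2 therefore depends on the length used. Atp5g1 had the lowest p of the complex, at 126.1, 127.1, 127.7 and 131.7 CPM in WT and 133.8, 141.2, 131.5 and 135.3 CPM in heterozygotes, with heterozygote library 3 just under WT library 4. Its log2 fold change was 0.08 ± 0.0327 (SE, edgeR adjusted p = 0.229), beside 0.04 for Atp5g2 and 0.02 for Atp5g3. Atp5l, a small membrane subunit, stood at 0.08 ± 0.0383 (SE, edgeR adjusted p = 0.318); 84.8% of its 50-base stretches recur in other genes and 87.4% of those of Atp5g2, so their reads could be split or lost.

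Complex IV, cytochrome c oxidase, held the one gene that passed. None of its 10 usual subunits passed or had an unadjusted p under 0.05, against 2.99% and 17.2% of all genes tested. Cox4i1, the regulatory subunit of most tissues, was at 298.5, 297.2, 317.9 and 296.3 CPM in WT and 303.4, 299.3, 307.7 and 284.0 CPM in heterozygotes, which overlapped (log2 fold change -0.02 ± 0.0363 SE, edgeR adjusted p = 0.850). Cox5a and Cox5b had log2 fold changes of -0.02 and 0.0071 (edgeR adjusted p = 0.872 and 0.954), Cox6a1 -0.0043, Cox6c -0.0096, Cox7a2 0.03, Cox7b -0.0098 and Cox8a 0.02. Cox7a2l, which joins respiratory complexes into supercomplexes, was at -0.03 (edgeR adjusted p = 0.795), and Ndufa4, the subunit named for complex I, at 0.04 (edgeR adjusted p = 0.594). Cox6b1, which ties the enzyme into a dimer, was the usual subunit with the lowest p, at 136.9 ± 2.55 CPM in WT and 143.1 ± 2.89 CPM in heterozygotes (SD, n = 4 each), with a log2 fold change of 0.06 ± 0.0306 (SE, edgeR adjusted p = 0.309).

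Cox6b2 encodes the form of that subunit known from testis. It was at 1.03, 1.69, 0.990 and 1.89 CPM in WT libraries 1 to 4 and at 2.16, 3.25, 3.30 and 2.90 CPM in heterozygote libraries 1 to 4, resting on 77 to 298 counts per library. Every heterozygote library lay above every WT library, WT libraries 1 and 3 were the lowest, and heterozygote library 1 was the nearest to WT. Cox6b2 rose 2.07-fold (95% interval 1.52 to 2.83), a log2 fold change of 1.05 ± 0.205 (SE, edgeR adjusted p = 0.0211); by exact permutation of the genotypes (two-sided) p was 0.0286, the lowest a comparison of 4 with 4 can reach. Its share of the summed Cox6b level per kilobase was 1.07% ± 0.355 in WT and 2.10% ± 0.390 in heterozygotes (SD, n = 4 each). Cox6b1 held the rest, 98.9% in WT and 97.9% in heterozygotes. By the means over all 8 libraries Cox6b1 was 61.6 times as abundant per kilobase, a value that pools both genotypes. No 50-base stretch of its transcript recurs in another gene and no exon overlaps one.

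In edgeR with TMM scaling the call on Cox6b2 lay near the threshold, while its size changed little with any single library that ended the call. It was kept without WT library 2, WT library 4 or heterozygote library 1, and missed the threshold without WT library 1, WT library 3, or heterozygote library 2, 3 or 4 (edgeR adjusted p = 0.0624, 0.0631, 0.0507, 0.0645 and 0.0535), with log2 fold changes of 0.94, 0.91, 1.00, 0.98 and 1.06. Leaving out WT libraries 1 and 3 together gave 0.71 on the log2 scale (edgeR adjusted p = 0.134). It was 1.49 in odd-numbered libraries (edgeR adjusted p = 0.0212) and 0.78 in even-numbered ones (edgeR adjusted p = 0.140). Spike-in counts were 0.0431% to 0.0491% of gene counts in odd-numbered libraries and 0.0713% to 0.0787% in even-numbered ones. With all 8 libraries the adjusted p of Cox6b2 was 0.000307 in DESeq2, 0.0208 in limma-voom and 0.00118 in edgeR with spike-in scaling. In all these fits, and over every alternative tried, the log2 fold change lay between 0.71 and 1.49.

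The promoter sequences of this pair of genes are shown because the pair, alone among those of complex IV, held a member that passed. Each is the stretch of 250 bases before the start in RefSeq on GRCm38.p6, 5′ to 3′ on the strand of the gene, with exact matches to GGGCGG and CCAAT or their reverse complements in capitals. Cox6b1 holds CCAAT on either strand, and Cox6b2 holds CCAAT on the opposite strand in 2 places and GGGCGG in 1.
Cox6b1, chr7:30626115-30626364, minus strand: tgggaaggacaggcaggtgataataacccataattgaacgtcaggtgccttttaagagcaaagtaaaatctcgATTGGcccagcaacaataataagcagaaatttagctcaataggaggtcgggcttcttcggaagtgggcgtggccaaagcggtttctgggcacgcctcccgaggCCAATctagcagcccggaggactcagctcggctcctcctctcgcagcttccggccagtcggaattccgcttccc
Cox6b2, chr7:4753095-4753344, minus strand: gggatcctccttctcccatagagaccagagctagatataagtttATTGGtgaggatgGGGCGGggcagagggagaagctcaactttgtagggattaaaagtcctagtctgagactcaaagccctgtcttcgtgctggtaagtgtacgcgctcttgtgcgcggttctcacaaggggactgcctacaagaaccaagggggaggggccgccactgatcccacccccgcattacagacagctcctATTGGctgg

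Cox8b, the form of Cox8 known from heart and muscle, had a similar fold and did not pass. It was at 0.227, 0.438, 0.201 and 1.00 CPM in WT libraries 1 to 4 and at 0.969, 1.43, 0.686 and 1.30 CPM in heterozygote libraries 1 to 4. WT library 4 stood above heterozygote libraries 1 and 3, and the other 3 WT libraries stood below all 4 heterozygotes. Its log2 fold change of 1.17 ± 0.438 (SE) had a 95% interval of 0.19 to 2.15 (edgeR adjusted p = 0.202). Without WT library 4 it was 1.89 and passed (edgeR adjusted p = 0.0120), as it did in odd-numbered libraries at 1.91 (edgeR adjusted p = 0.0430), while without WT libraries 1 and 3 it was 0.59 (edgeR adjusted p = 0.648). Cox8a was 229.9 times as abundant per kilobase by the means over all 8 libraries, both genotypes pooled.

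The other alternative forms had no difference past the test, and their low counts left wide intervals. Cox7a1 and Cox6a2, both known from muscle, had log2 fold changes of 0.12 (95% interval -0.25 to 0.49) and 0.07 (-0.44 to 0.57). Cox4i2, known from lung, was at 0.08 (-0.41 to 0.57), Ndufa4l2, known to answer to low oxygen, at 0.04 (-0.32 to 0.40), and Cox7b2, known from testis, at -0.37 (-1.08 to 0.35). Each was far below its usual partner: per kilobase the partner was 55.0 times as abundant for Cox7a1, 123.1 times for Cox6a2, 461.7 times for Cox4i2, 162.3 times for Ndufa4l2 and 167.6 times for Cox7b2. Cox8c, the third form of Cox8, had 0 counts in every library, which allows up to 0.0333 to 0.0511 CPM by library for counting error.

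**Figure D3:**
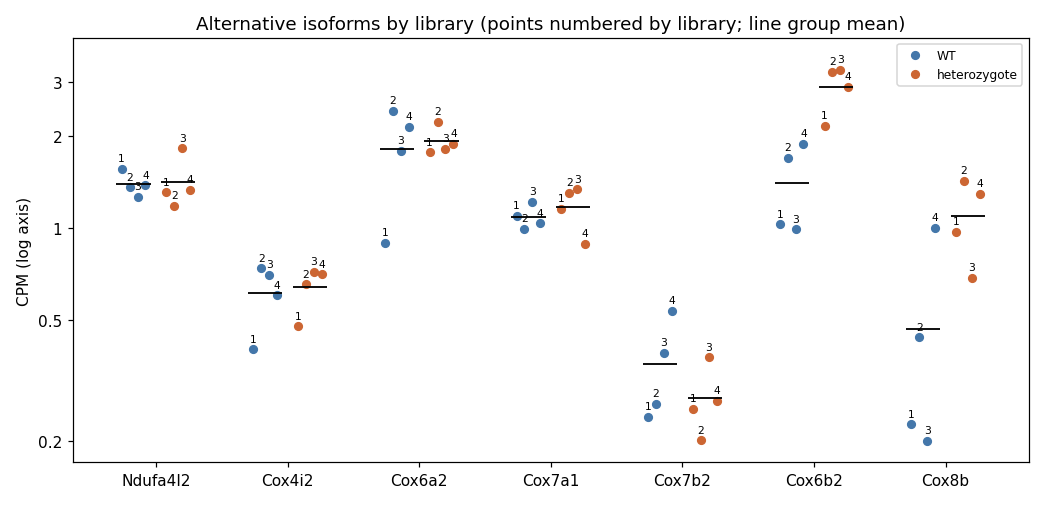
CPM of the 7 alternative isoform genes with counts, on a log axis, for 4 WT and 4 heterozygote libraries; numbers name the library and lines are group means. The genotypes separate for Cox6b2 (0.990 to 1.89 against 2.16 to 3.30 CPM) and overlap for the other 6.

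Copies and pseudogenes added little. Of 10, 7 had too few counts to be tested, Ndufa11b, Ndufb4c, Ndufs6b, Uqcrh-ps2, Atp5k-ps2, Atp5l-ps1 and Atp5l-ps2. Uqcrh-ps1, Atp5l2-ps and Cox6c2 had log2 fold changes of 0.07, -0.31 and -0.36, none past the test (edgeR adjusted p = 0.964, 0.687 and 0.518). Cox6c2 was at 0.307, 0.334, 0.301 and 0.334 CPM in WT and 0.255, 0.188, 0.299 and 0.247 CPM in heterozygotes, and it shares 52.7% of its 50-base stretches with Cox6c, so its reads are uncertain.

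Markers of 2 other tissues, like Cox6b2 and Cox8b, had higher means in heterozygotes and were lowest in WT libraries 1 and 3. The 6 ependymal markers summed to 10.4, 20.7, 11.2 and 19.7 CPM in WT libraries 1 to 4 and to 35.9, 34.5, 29.8 and 45.3 CPM in heterozygotes; all 6 had separate genotypes and 4 rose in edgeR, Mia, Dynlrb2, Rsph1 and Ccdc153. All 12 choroid plexus markers had separate genotypes and none passed in edgeR, where 11 had an unadjusted p under 0.05; 5 passed in DESeq2 and 10 in limma-voom. Without WT libraries 1 and 3, 10 of the 12 choroid plexus markers and 3 of the 6 ependymal markers passed in edgeR, and with spike-in scaling 1 (Calml4) and 4 did. Of all genes tested, 6.99% separated on the higher side and 17.2% had an unadjusted edgeR p under 0.05. Those called were 2.99% in edgeR, 6.7% in DESeq2, 3.51% in limma-voom and 7.23% with spike-in scaling. Without WT libraries 1 and 3 edgeR called 170 genes in all. WT libraries 1 and 3 were lowest in both sums and in Cox6b2 and Cox8b. Among heterozygotes, library 2 held 3.25 CPM of Cox6b2 and the highest choroid plexus sum (6443 CPM). Library 3 held 3.30 CPM of Cox6b2, the highest, and was the lowest in both sums (29.8 and 5578 CPM). Cox8b was also at its lowest among heterozygotes in library 3, at 0.686 CPM. Oligodendrocyte markers too were lowest in WT libraries 1 and 3 (3161 and 2903 CPM, against 4315 and 4096 CPM in WT libraries 2 and 4). In heterozygotes they summed to 3505 to 4184 CPM, and 0 of 5 passed in edgeR. Of 6 endothelial and mural markers 1 passed, Acta2 (log2 fold change 0.54, edgeR adjusted p = 0.0241). Of 5 astrocyte and 4 microglia markers 0 passed in edgeR. Muscle markers summed to 27.8 to 33.8 CPM in WT and 30.8 to 35.4 CPM in heterozygotes. Of these, 0 of 5 passed in edgeR, DESeq2 or limma-voom, with 0 at an unadjusted p under 0.05. Of 4 testis markers, Ldhc, Prm2 and Tnp1 had 0 counts in every library, and Prm1 lay between 0.0170 and 0.163 CPM. The part of other tissue in Cox6b2 and Cox8b was not tested.

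**Figure D4:**
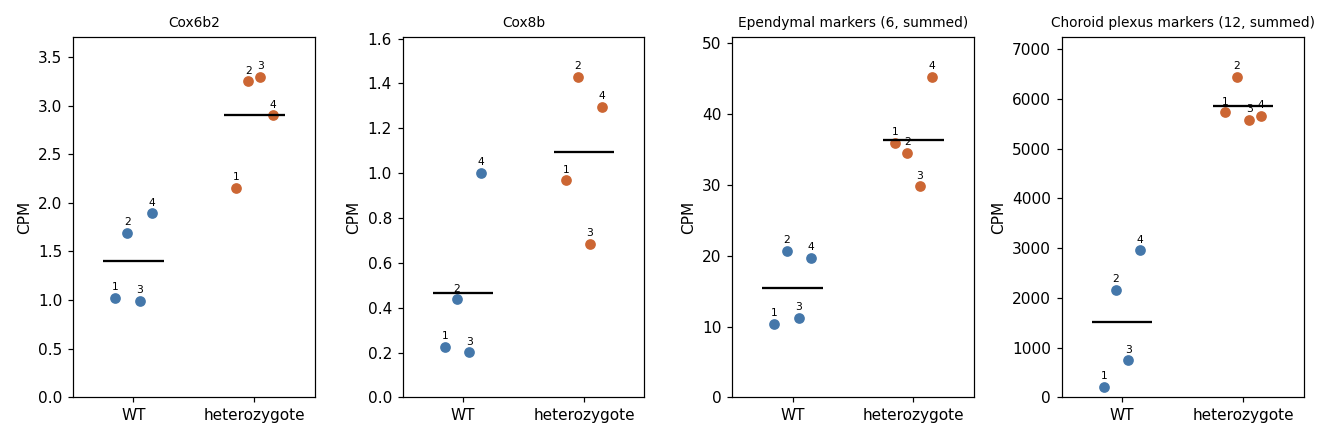
CPM of Cox6b2 and Cox8b beside the summed CPM of 6 ependymal and 12 choroid plexus markers, for 4 WT and 4 heterozygote libraries; numbers name the library, lines are group means, and each panel has its own axis from 0. WT libraries 1 and 3 are the lowest in every panel, and WT library 4 reaches 1.00 CPM of Cox8b.

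Taken by complex, libraries differed from one another by more than genotypes did. The mean log2(CPM + 0.5) over the members of at least 10 CPM, less its mean over 8 libraries, was -0.0261, 0.00074, 0.00851 and -0.0111 in WT and 0.0560, -0.00557, 0.00114 and -0.0236 in heterozygotes for complex I. Heterozygote library 1, the shallowest, was the highest of the 8 in complexes I, III, IV and V, and WT library 3 in complex II. Group means differed by less than the spread within either genotype in every complex, and this score was given no test. The median log2 fold change was 0.02 for complex I, -0.0082 for complex II, 0.0098 for complex III, 0.0014 for complex IV and 0.02 for complex V, against -0.0056 for all genes tested. Of the 76 members of at least 10 CPM, 42 lay above 0, which became 38 without heterozygote library 1 and 34 in even-numbered libraries. Spike-in scaling moved the median of all genes to 0.09 and put all 76 above 0, with 50 of the 76 above that median where TMM had 48, and it called none of them, against 7.23% of all genes.

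**Figure D5:**
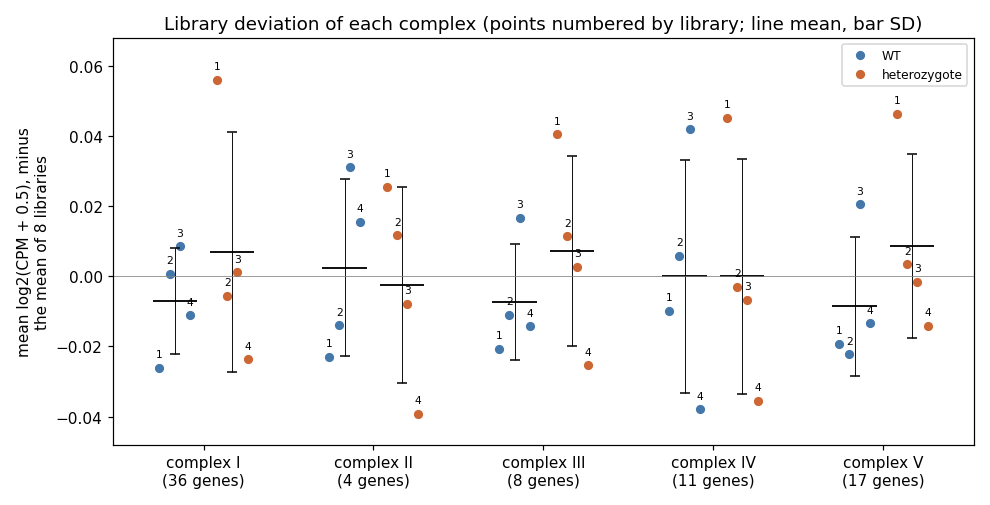
Mean log2(CPM + 0.5) over the members of at least 10 CPM of each complex, less the mean over 8 libraries, for 4 WT and 4 heterozygote libraries; numbers name the library, lines are group means and bars SD. Heterozygote library 1 stands highest in all but complex II, and the genotypes overlap in every complex.

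No gene of the rest of the pathway passed in edgeR with TMM scaling, and the transcripts of the mitochondrial genome lay on the lower side without passing. In edgeR 0 of 16 assembly factors of complex I, 0 of 30 of complexes II to V, 0 of 2 of cytochromes c and c1, 0 of 16 citric acid cycle genes, 0 of 12 regulators of mitochondrial biogenesis and 0 of 73 mitochondrial ribosome genes passed, with 1, 1, 0, 2, 0 and 1 at an unadjusted p under 0.05. DESeq2 called 1 of these 149 genes, Ttc19, a complex III assembly factor, and limma-voom none. EdgeR with spike-in scaling called 2, Suclg2 and Mrps6. Over all genes tested, 2.99% passed in edgeR and 17.2% had an unadjusted edgeR p under 0.05. The shares called were 6.7% in DESeq2, 3.51% in limma-voom and 7.23% with spike-in scaling. Ttc19 was at 104.8 ± 2.92 CPM in WT and 96.7 ± 2.61 CPM in heterozygotes (SD, n = 4 each; log2 fold change -0.12 ± 0.0339 SE, edgeR adjusted p = 0.0863). Values nearest to the test in the other lists were -0.11 for the assembly factor Ndufaf4, -0.11 for Dlat, a subunit of pyruvate dehydrogenase, 0.23 for Suclg2 of succinyl-CoA ligase, 0.17 and 0.14 for the ribosomal Mrps6 and Mrps24, and -0.07 for the mitochondrial transcription factor Tfam. Cytochrome c itself, Cycs, was at -0.03 and Cyc1 at -0.0018.

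The 13 subunits encoded in the mitochondrial genome are the partners of these nuclear genes. All 13 had log2 fold changes below 0, with a median of -0.20, while 47.9% of all genes tested lay above 0. In edgeR with TMM scaling and in limma-voom 0 of the 13 passed, against 2.99% and 3.51% of all genes. An unadjusted edgeR p under 0.05 was reached by 5 of the 13, against 17.2% of all genes. DESeq2 called 3, mt-Nd2, mt-Atp8 and mt-Atp6, against 6.7% of all genes. With spike-in scaling 4 of the 13 lay above 0 and edgeR called 1, mt-Atp8, on the lower side, against 7.23% of all genes in either direction. Their summed level was 36930, 33340, 34350 and 36260 CPM in WT and 32440, 33040, 32770 and 34330 CPM in heterozygotes, so the genotypes overlapped. The nuclear members summed to 8671 to 8895 CPM in WT and 8690 to 8996 CPM in heterozygotes. Of the 13, 7 lay between 888.8 and 12620 CPM and 6 between 0.814 and 14.6 CPM, and the low ones include mt-Atp8 and mt-Atp6. Whether reads that also match nuclear copies of mitochondrial DNA were counted is not stated in the labels. The 75 tested genes of the cytosolic ribosome, whose transcripts are also short, had 67 log2 fold changes above 0 and a median of 0.04, with 0 called in edgeR, DESeq2 or limma-voom and 2 at an unadjusted edgeR p under 0.05. The nearest were Rps2 and Rps25 at 0.11 and 0.10, which were the 2 called with spike-in scaling.

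Shared sequence limits some of these counts. Of the 76 members of at least 10 CPM, 31 share no 50-base stretch with another gene and 17 share at least 20%. In 24 an exon overlaps a gene on the opposite strand, and the library kit does not mark strand.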

How the data were processed

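The deposited table held raw read counts per Ensembl gene and spike-in for 8 hippocampal libraries, made from 10 ng of total RNA with poly(A) and random priming, per the labels' protocols. FastQC, STAR 2.4.2a, HTSeq and DESeq2 and the builds NCBIM37 and mm9 are named in the submitters' processing notes; annotation, strand and multi-mapping settings: not given in the sources used here. Library sizes and tests left out the 92 spike-in rows. Symbols from GENCODE M21 matched 32620 of 37310 genes; lengths and shared 50-base stretches came from the same annotation on GRCm38, and its coordinates were used only with the RefSeq promoters.

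Counts were scaled by TMM and filtered with filterByExpr (minimum count 10, total 15), leaving 17913 genes. Genotypes were compared with the robust quasi-likelihood F test (edgeR 4.0.16, R 4.3.3), two-sided, and p-values were adjusted after Benjamini and Hochberg over all genes tested, with a threshold of 0.05; the step was tested on simulated counts. A standard error is the size of the log2 fold change over the square root of F, and 95% intervals use the matching t quantile. DESeq2 1.42.0, limma 3.58.1, other scalings and filters, libraries left out and a replicate block were the alternatives.

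Members, lists and alternatives were chosen with earlier results of these data known. Named members are those past the threshold, the 2 lowest p, highest and lowest level per kilobase (at least 1 CPM) in each complex, core subunits, isoform pairs, the 3 largest folds each way, and the extremes of variation; from each related list up to 2 genes with the lowest p are named. Nrf1, Yy1, Cycs and Cyc1, the genes with motif matches, and the mitochondrial genes called by DESeq2 were named beyond that rule after their values were seen. Depth of 58717305 to 90043971 gene counts gives a count of 0 an upper limit of 3 counts, which covers counting error alone because the reads carry no molecular identifiers.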

Additional observations from a re-analysis of the deposited data

Results flagged for a closer look

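In 4 of 110 groups of 4 libraries that were checked (3.64%), 1 library stood apart from the other 3 by Dixon's criterion, which chance meets in about 1 group in 20 (5%). Atp5a1 was at 785 CPM in heterozygote library 3, below the other heterozygotes at 824.7 to 828.0 CPM. Cox4i1 was at 318 CPM in WT library 3, above the other WT libraries at 296.3 to 298.5 CPM. Cox7a2l was at 66.3 CPM in heterozygote library 2, below the others at 70.8 to 71.2 CPM. Ndufb10 was at 80.8 CPM in heterozygote library 1, above the others at 78.7 to 79.0 CPM. None of these 4 genes passed the test between genotypes with or without the library named.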

How the results depend on the processing

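Of 94 members 1 passed, Cox6b2. The count was 0 without WT libraries 1 and 3 and in even-numbered libraries, 2 in odd-numbered ones (Cox6b2 and Cox8b), and from 0 to 2 with each library left out in turn; other scalings, filters and tools left it at 1. For all genes the count of 535 became 1200 with DESeq2, 170 without WT libraries 1 and 3, 78 in even-numbered libraries, 1295 with spike-in scaling, and 171 to 767 with each library left out. No complex median moved by more than the larger of the 2 genotypes' SDs except complex V in odd-numbered libraries (0.0518) and all 5 with spike-in scaling (0.115, 0.091, 0.108, 0.0979 and 0.118 for complexes I to V, where all genes moved to 0.09); the cause was not tested. Moves beyond the smaller SD included complex I in even-numbered libraries (-0.0151) and complex III without heterozygote library 4 (0.0343); across the alternatives only the median of complex V kept its sign. Spike-in scaling within each mix was added after seeing the data, with odd-numbered and even-numbered libraries taken as the mixes. It replaced the planned subset of spike-ins equal in both mixes, which could not be listed from the files and was not run. Counting Ndufa4 with complex IV was also added and moved no median beyond that spread. With the replicate number as a block, 1 member passed (Cox6b2, edgeR adjusted p = 0.0236) and 406 genes in all; same-numbered libraries correlated at 0.0269, -0.0449, -0.0932 and -0.0780 in their deviations from the group means, so the numbers were not treated as pairs, and no library correlated best with its own number. With 4 libraries a side, members under 10 CPM have intervals too wide to show differences like those bounded for abundant ones.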
